A study of Mus musculus with 6 samples.

Results

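Membrane transporters are the proteins that carry ions, sugars, amino acids, metals and organic molecules across cell and organelle membranes. They were read here from spotted cDNA arrays of the newborn mouse ovary through the name given to each clone. A probe was taken when its annotation held the words solute carrier family, ATP-binding cassette or potassium channel, or named an ATPase that moves Na+, Ca++ or H+. Of 8272 probes, 79 met this rule under 63 annotation names (4707 names in all), and the brightest probe stood for each name. Of these 63 genes, 62 could be tested. The solute carrier phrase gave 38 names, the H+ ATPase phrase 10, the ATP-binding cassette phrase 10, the Na+ ATPase phrase 3, the potassium channel phrase 2 and the Ca++ ATPase phrase 0.

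The study compared ovaries of C57Bl/6J pups at day 4 and at day 2 after birth with ovaries taken within a day of birth (day 0), a time at which oocytes become enclosed in primordial follicles and the first follicles begin to grow. No group carried a transgene or received a treatment. Each age had 3 arrays with their own RNA of the later day in Cy5, set against day 0 RNA in Cy3, and array 3 of both ages used the same day 0 RNA. Each value is a log2 ratio of the later day over day 0, so 0 means equal signal and 1 means double. The whole ovary was extracted, and fewer cells of a type and less RNA per cell cannot be told apart.

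Solute carriers use gradients of ions or of the solute itself to move their cargo, while pumps spend ATP. The Na+/K+ ATPase holds the sodium gradient that many carriers use, and the vacuolar proton ATPase (V-ATPase) acidifies lysosomes, endosomes and secretory vesicles. Its V1 sector faces the cytosol and splits ATP, its V0 sector conducts protons through the membrane, and the a subunit of V0, which exists in several isoforms, helps decide which membrane receives the pump. In the ovary, follicle cells are known to pass amino acids and energy substrates to the oocyte they surround.

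The arrays differed in ways that touch every value below. Values were present for 7775 and 5630 probes on day 4 arrays 1 and 3 and for 8272 on each of the other arrays. Day 2 arrays 1 and 2 ran against each other over all probes (r −0.675, 8272 probes on these arrays, which are not independent replicates), although the same dye orientation is stated for both. Which way the day 2 ratios run is therefore unsettled, so many results that use them are repeated with array 1 or array 2 turned in sign. The others are given in the stated direction only. Day 4 arrays 1 and 2 had r 0.752 over 7775 probes. Day 4 array 3 was less like them, with r 0.511 to array 1 (5270 probes) and 0.444 to array 2 (5630 probes). Every array is stated to have the later day in the same dye. A dye effect of a single gene therefore cannot be told apart from a difference against day 0. Among markers of ovarian cells, all 7 measured oocyte markers had day 4 means above 0 (median 1.05, 1 past the test). So did all 3 granulosa markers (median 0.42), all 3 steroidogenic and theca markers (median 0.52) and all 5 smooth muscle and stroma markers (median 0.50). Single arrays did not always share that sign. Star, Cyp17a1 and Hsd3b1 each had a day 4 array below 0 (−0.17, −0.14 and −0.08), as did the stroma markers Mylk (−0.10) and Cnn1 (−0.43, mean 0.0085). All 5 measured erythroid markers had day 4 means below 0 (median −0.88, array medians from −1.28 to −0.72), as did all 3 surface epithelium markers (median −0.55), 2 of 3 endothelial markers and the 1 leukocyte marker. None of these other markers passed the test. A log2 ratio holds no level, so how much of any marker was present is not known from it, and the part of these shifts in the values of the transporters was not tested.

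At day 4 no transporter gene passed the test against day 0. The leading genes were isoforms of 1 V-ATPase subunit, Atp6v0a4 and Atp6v0a1, and the organic anion carrier Slco3a1, with higher signal at day 4, and, with lower signal, the glucose carrier Slc2a3, the ABC transporters Abcb6 and Abcb1b and the V-ATPase proteolipid Atp6v0c. By limma 0 of 62 members were higher and 0 lower at an adjusted p under 0.05, where 0.479% of all 8135 probes tested were higher and 0% lower. At an unadjusted p under 0.05 there were 3 members higher (4.84%, against 5.00% of all probes) and 4 lower (6.45%, against 4.29%). Both shares lie near those of all probes. The members leaned to the lower side in another count: 42 of 62 had a log2 ratio below 0 (67.7%, against 50.2% of all probes) and 20 above (32.3%, against 49.8%), with a median of −0.14, while the median of all probes was −0.0013. On the single arrays the members' median was −0.046, −0.088 and −0.098 on day 4 arrays 1, 2 and 3. Of 41 members with values on all 6 arrays, 7 lay above 0 on all 3 day 4 arrays (17.1%, against 24.1% of all probes) and 13 below (31.7%, against 20.2%). Single arrays carried much weight: of 41 members with values on all 3 day 4 arrays, the mean of 28 moved by more than 1.5 times or turned sign when 1 of these arrays was left out, and that of 12 turned sign.

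**Figure D1:**
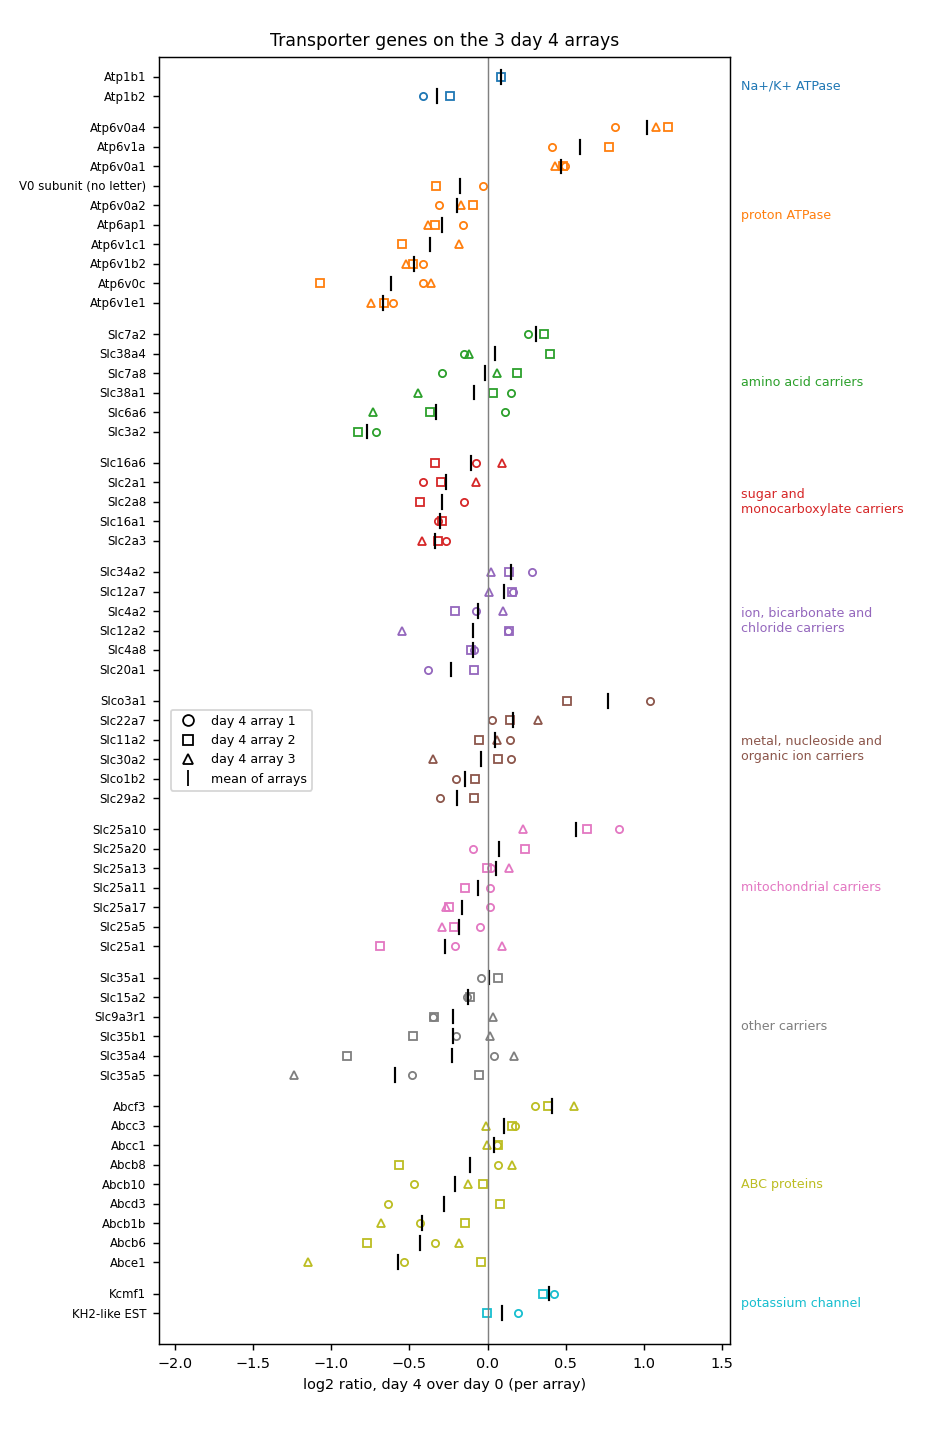
Log2 ratio of day 4 over day 0 for 59 of the 63 transporter genes (brightest probe) on each day 4 array, grouped by role and ordered by the mean within a role, with a bar at the mean of the arrays that had a value. Atp6v0a4 has the highest mean shown, and the values of Atp6v0a1 lie close together to the right of 0. The sugar and monocarboxylate carriers shown have means left of 0, and Atp1b1 has a single value and was not tested.

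**Figure D2:**
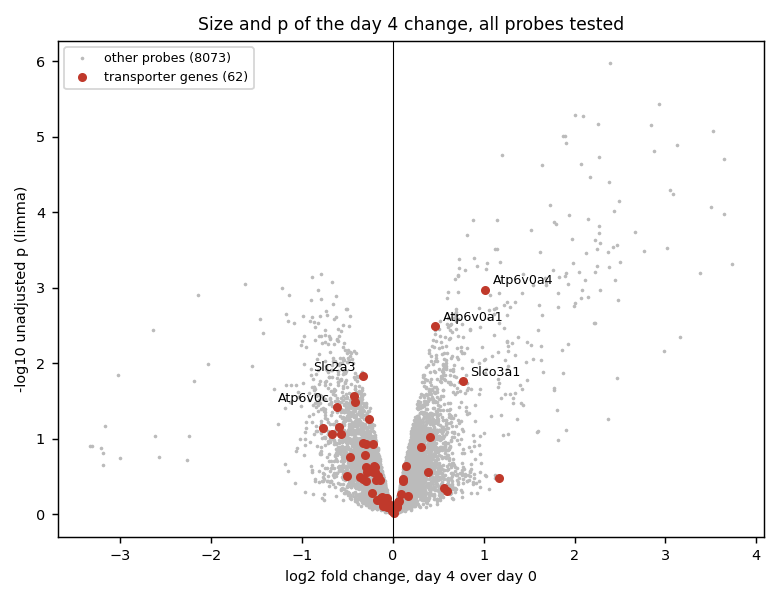
Size of the day 4 difference (log2, day 4 over day 0) against its unadjusted p on a −log10 scale, for the 62 transporter genes and all other probes tested. The transporter genes lie inside the cloud of other probes, with Atp6v0a4 and Atp6v0a1 highest.

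Among the V-ATPase genes, the V0 subunit a isoforms did not move alike. Atp6v0a4 encodes the isoform known from acid-secreting cells of the kidney. Its brightest probe had 0.82, 1.15 and 1.08 on day 4 arrays 1, 2 and 3, and −0.03, 0.65 and 0.70 on day 2 arrays 1, 2 and 3. All day 4 values lay above all day 2 values, and every array but day 2 array 1 lay above 0. The mean at day 4 was 1.02 ± 0.17 (SE, n = 3), a 2.02-fold higher signal with an adjusted p of 0.0969 in limma, short of the threshold. This call depended on how the spread was estimated: the adjusted p was 0.0364 with a variance trend and robust moderation, 0.0205 with the day 4 arrays alone and 0.0279 without day 2 array 1. Other alternatives moved it the other way. The adjusted p in limma was 0.148 with flagged values left out and 0.102 with only probes above the lower quartile of mean log2 intensity. A second, dimmer probe of Atp6v0a4 had −0.55, −0.16 and −0.13 on the day 4 arrays (mean −0.28 ± 0.14), so the probes of this gene pointed opposite ways, and the mean over both was 0.37.

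Atp6v0a1, the isoform best known from neurons and their vesicles, had 0.49, 0.48 and 0.43 on day 4 arrays 1, 2 and 3, against −0.01, 0.17 and 0.17 on day 2 arrays 1, 2 and 3. The day 4 values were tightly grouped and did not overlap those of day 2. Its mean at day 4 was 0.47 ± 0.10 (n = 3, 1.38-fold, adjusted p = 0.167 by limma, and 0.0498 with a variance trend and robust moderation), and this annotation name had no other probe. The adjusted p in limma was 0.209 with flagged values left out and 0.215 with the median of the 4 repeats. Its probe was dim, with a mean log2 intensity of 8.63 against a median of 9.63 over all probes tested. The filter on the lower quartile of this intensity left it out. The third isoform, Atp6v0a2, which is found on the Golgi and endosomes, lay on the other side of 0, with −0.31, −0.09 and −0.17 on the day 4 arrays (mean −0.19 ± 0.15, adjusted p = 0.759).

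On their brightest probes the remaining subunits were mostly below 0 at day 4, with 1 above and 6 below and a median of −0.37. Atp6v1e1, a stalk subunit of V1, had −0.61, −0.66 and −0.75 on the day 4 arrays, against 0.30, −1.56 and −0.33 on the day 2 arrays. The day 4 values agreed to within a standard deviation of 0.07, and those of day 2 spread with a standard deviation of 0.94. With both ages sharing 1 estimate of spread the mean was −0.67 ± 0.33 (adjusted p = 0.62), and with the day 4 arrays alone the adjusted p was 0.0442. Atp6v0c, the proteolipid that forms the proton-carrying ring, had −0.42, −1.07 and −0.36 on the day 4 arrays, against −0.43, 0.39 and −0.55 on the day 2 arrays. Its mean at day 4 was −0.62 ± 0.23 (n = 3, adjusted p = 0.495), which became −0.39 without day 4 array 2. Its other tested probe had 0.0045 and −1.21 on day 4 arrays 1 and 2 and no value on array 3. The mean of that probe, −0.60 ± 0.45, therefore rests on array 2 as well. The ages overlapped for both genes.

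Atp6v1b2, part of the ATP-splitting head of V1, had −0.41, −0.47 and −0.52 on the day 4 arrays, all below 0 and close together, with a mean of −0.47 ± 0.31 (adjusted p = 0.717). A V0 subunit whose name gives no letter averaged −0.18 ± 0.37 (n = 2), the accessory protein Atp6ap1 −0.29 ± 0.30 (n = 3) and Atp6v1c1, which links V1 to V0, −0.37 ± 0.34 (n = 2). The other probe of Atp6v1c1 lay on the other side of 0, with a mean of 0.04 ± 0.11 (n = 3). Among brightest probes the catalytic subunit Atp6v1a was the exception, at 0.41 and 0.77 on day 4 arrays 1 and 2, with no value on array 3. Its mean of 0.59 ± 0.82 carried a wide error, since its day 2 values were 2.31, −1.09 and −0.40, and its other probes had −0.13 and 0.16 at day 4.

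**Figure D3:**
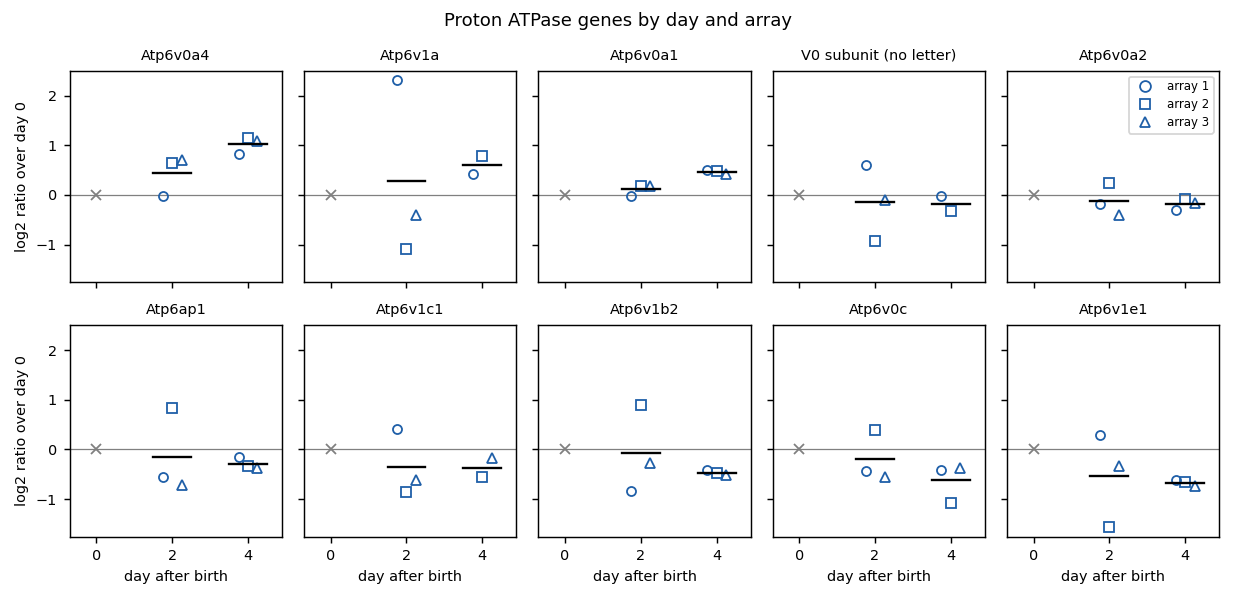
Log2 ratio over day 0 of the 10 V-ATPase genes (brightest probe) by day after birth, with a symbol per array, a bar at the mean of each day and a cross for day 0, which is 0 by construction. Day 4 values are grouped more tightly than day 2 values in most panels, and only Atp6v0a4, Atp6v1a and Atp6v0a1 have day 4 means above 0.

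Promoters are shown for both subunit a isoforms that lay above 0 and for Atp6v1e1, which had the lowest day 4 mean of the V-ATPase genes, because genes of 1 enzyme lay on opposite sides of 0. Sequences are from RefSeq on build GRCm38.p6, given as the 100 bases just upstream of the start of the gene, 5′ to 3′ on the gene's strand, with each CG dinucleotide in capitals. Atp6v0a4 (chr6:38124587-38124686, minus strand) and Atp6v0a1 (chr11:101010298-101010397, plus strand) were above 0 at day 4, and Atp6v1e1 (chr6:120822699-120822798, minus strand) was below.
Atp6v0a4: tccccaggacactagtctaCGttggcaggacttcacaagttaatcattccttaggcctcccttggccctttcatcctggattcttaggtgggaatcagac
Atp6v0a1: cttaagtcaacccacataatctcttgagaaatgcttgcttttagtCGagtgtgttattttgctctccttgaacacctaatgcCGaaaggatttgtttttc
Atp6v1e1: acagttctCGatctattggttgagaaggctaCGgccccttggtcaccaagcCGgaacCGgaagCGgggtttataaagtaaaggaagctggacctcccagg
Over the full 250 upstream bases the number of CG dinucleotides was 1 for Atp6v0a4, 4 for Atp6v0a1 and 12 for Atp6v1e1. It was 8 for Atp6v1a, which also lay above 0, and, among genes below 0, 14 for Atp6ap1 and 15, 16 and 25 for the starts of Atp6v0c. The median was 13 over the 8 V-ATPase starts and 14.5 over all starts of members, against 6 over 32851 gene starts. Of 61 member symbols, 40 were in the table of promoters, 6 of them V-ATPase genes. The 6-base word CACGTG, which reads the same on both strands and is the core of the element bound by TFEB, a regulator of lysosomal genes, lay in these 250 bases of 1 of the 6 V-ATPase genes, Atp6v1a, and of 7 of the 40 genes (14.6% of their 48 starts, against 6.02% of all starts). The word itself holds a CG, and the median GC content was 60.8% over starts of members, against 52.4% over all starts. Starts of like base content were not compared, so the part of base content in these shares was not tested. A match of these letters describes the window and shows no binding, and several genes have more than 1 start.

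All 6 sugar and monocarboxylate carriers had a mean below 0 at day 4 on their brightest probes (50.2% of all probes did), from −0.33 to −0.11 with a median of −0.28. None passed the test, and not every sign held without day 4 array 2. Slc2a3, a glucose carrier of high affinity, had −0.26, −0.32 and −0.42 on day 4 arrays 1, 2 and 3, against −0.06, 0.08 and −0.05 on day 2 arrays 1, 2 and 3. Every day 4 value lay below every day 2 value, and the day 2 values lay close to 0. The mean at day 4 was −0.33 ± 0.10 (n = 3, 0.793-fold, adjusted p = 0.338). This probe too was dim, with a mean log2 intensity of 8.62, and the filter on the lower quartile of intensity left it out.

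Slc2a1, the glucose carrier of most tissues and of red cells, had −0.41, −0.30 and −0.08 on the day 4 arrays, against −0.12, 0.02 and −0.13 on the day 2 arrays, so that the ages overlapped (mean at day 4 −0.26 ± 0.11, adjusted p = 0.56). Slc16a1, which carries lactate and pyruvate, had −0.32 and −0.29 on day 4 arrays 1 and 2, against 0.19, −0.06 and −0.44 on the day 2 arrays (mean at day 4 −0.30 ± 0.19). Slc2a8, a glucose carrier of internal membranes, averaged −0.29 ± 0.16 on its brightest probe and 0.05 ± 0.11 on its other probe. Slc16a6 averaged −0.11 ± 0.38, or 0.0096 without day 4 array 2. The erythroid markers given above had day 4 means below 0, and their part in the values of Slc2a1 was not tested.

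Amino acid carriers were divided, with 2 above and 4 below 0 at day 4 (median −0.05) and none past the test. Slc3a2, the heavy chain that brings several amino acid exchangers to the surface, had −0.71 and −0.83 on day 4 arrays 1 and 2, with no value on array 3, against −0.71, 0.71 and 0.05 on the day 2 arrays. Its mean at day 4 was −0.77 ± 0.34 (n = 2, adjusted p = 0.602), the lowest of the 62 members. The higher day 4 value and the lowest day 2 value were almost equal (−0.713 and −0.709). Slc7a2, a carrier of arginine and lysine, had 0.26 and 0.36 on day 4 arrays 1 and 2, against 0.61, 0.09 and 0.38 on the day 2 arrays, all above 0 at both ages. Its mean was 0.31 ± 0.17 at day 4 (n = 2, adjusted p = 0.678). Slc6a6, the taurine carrier, had 0.11, −0.37 and −0.73 on the day 4 arrays, on both sides of 0. Its mean of −0.33 ± 0.18 (n = 3) was −0.13 without array 3 and −0.55 without array 1, and its other probe averaged −0.28 ± 0.15 (n = 2). Slc38a1 and Slc38a4, which take up small neutral amino acids, and Slc7a8, an exchanger of large neutral ones, lay between −0.09 and 0.04. The other probe of Slc38a4 averaged −0.10 ± 0.27.

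Among carriers of metals, nucleosides and organic ions, 3 lay above and 3 below 0 at day 4. Slco3a1, an organic anion carrier, had 1.04 and 0.50 on day 4 arrays 1 and 2, with no value on array 3, against −0.16, 0.47 and 0.22 on the day 2 arrays. Both day 4 values lay above all of day 2. The mean at day 4 was 0.77 ± 0.22 (n = 2, 1.71-fold, adjusted p = 0.362). Slc22a7, another organic anion carrier, had 0.03, 0.14 and 0.32 on the day 4 arrays, against 0.28, −1.17 and 0.06 on the day 2 arrays, with overlap. Slc11a2, the carrier of ferrous iron and other divalent metals, had 0.14, −0.06 and 0.06 at day 4, against −0.03, 0.51 and −0.12 at day 2, with a day 4 mean of 0.05 ± 0.15. The zinc carrier Slc30a2, the nucleoside carrier Slc29a2 and Slco1b2 averaged between −0.20 and −0.04.

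Ion, bicarbonate and chloride carriers had small values, from −0.24 to 0.15, with 2 above and 4 below 0. Slc34a2, a sodium phosphate carrier, had 0.28, 0.14 and 0.02 on the day 4 arrays, against 0.14, 0.19 and −0.05 on the day 2 arrays (mean at day 4 0.15 ± 0.11). Slc12a2, which brings sodium, potassium and chloride into cells, had 0.13, 0.14 and −0.55 on the day 4 arrays, against −0.13, 0.19 and −0.22 on the day 2 arrays. Its mean of −0.09 ± 0.18 at day 4 rests on array 3, without which it was 0.13. Its other probes averaged −0.15 ± 0.21 and 0.01 ± 0.18. The potassium chloride carrier Slc12a7, the anion exchanger Slc4a2, the bicarbonate carrier Slc4a8 and the phosphate carrier Slc20a1 lay between −0.24 and 0.11.

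The beta subunits of the Na+/K+ ATPase were poorly measured. Atp1b2, a beta subunit, needed for the pump to reach the surface, had −0.41 and −0.24 on day 4 arrays 1 and 2, against −0.29, −1.15 and 0.12 on the day 2 arrays (mean at day 4 −0.33 ± 0.32). The brightest probe of Atp1b1, the other beta subunit, had a value of 0.08 on day 4 array 2 alone, against 0.73, −0.66 and −0.71 on the day 2 arrays, and was not tested. Its other probe, at 0.15, −0.07 and −1.09 on the day 4 arrays, averaged −0.34 ± 0.44.

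Mitochondrial carriers of the SLC25 family were evenly divided at day 4, with 4 above and 4 below 0. Slc25a10, the dicarboxylate carrier, had 0.84, 0.63 and 0.23 on the day 4 arrays, against 2.69, −1.42 and 0.12 on the day 2 arrays (mean at day 4 0.57 ± 0.70). Slc25a5, an exchanger of ADP and ATP, had −0.05, −0.22 and −0.29 on the day 4 arrays, against −0.05, −0.18 and −0.92 on the day 2 arrays, below 0 on all 6 (mean at day 4 −0.19 ± 0.19). The citrate carrier Slc25a1, the oxoglutarate carrier Slc25a11, the peroxisomal Slc25a17, the aspartate and glutamate carrier Slc25a13 and the carnitine carrier Slc25a20 lay between −0.27 and 0.07. The other probe of Slc25a11 averaged 0.12 ± 0.13 (n = 3).

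ABC proteins had 3 members above and 7 below 0 at day 4, with a median of −0.25. Abcb6, known for porphyrin transport, had −0.33, −0.77 and −0.18 on day 4 arrays 1, 2 and 3, against 0.22, −0.09 and −0.05 on day 2 arrays 1, 2 and 3. The ages did not overlap in the stated direction, but did with day 2 array 1 turned in sign. The mean at day 4 was −0.43 ± 0.15 (n = 3, 0.742-fold, adjusted p = 0.438), or −0.26 without day 4 array 2. Abcb1b, a multidrug exporter, had −0.43, −0.14 and −0.68 on the day 4 arrays, against 0.35, 0.21 and −0.13 on the day 2 arrays (mean at day 4 −0.42 ± 0.15, adjusted p = 0.471). The ages did not overlap in the stated direction, but did with day 2 array 1 or array 2 turned.

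Abcb10, which takes part in heme synthesis in red cell precursors, had −0.47, −0.03 and −0.13 on the day 4 arrays. Its mean of −0.21 ± 0.16 was −0.079 without array 1. The 5 measured erythroid markers had day 4 means below 0, and their part in the values of Abcb6 and Abcb10 was not tested. Abcd3, of peroxisomes, averaged −0.28 ± 0.23 (n = 2), the mitochondrial Abcb8 −0.11 ± 0.28, and the organic anion exporters Abcc1 and Abcc3 0.04 ± 0.16 and 0.11 ± 0.11.

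The rule also took in proteins that do not move a solute. Abce1, which recycles ribosomes, had a mean of −0.57 ± 0.28 at day 4 (n = 3, adjusted p = 0.622), from −1.15 to −0.04 on the arrays. Abcf3, of a family linked to translation, had 0.30, 0.38 and 0.55 on the day 4 arrays, against −0.24, 0.77 and −0.12 on the day 2 arrays (mean at day 4 0.41 ± 0.21). Both phrases with potassium channel in them led elsewhere: Kcmf1, a ubiquitin ligase by its present description, had 0.43 and 0.36 on day 4 arrays 1 and 2, against 0.69, −0.60 and −0.19 on the day 2 arrays, and an EST named by likeness to a voltage-gated channel averaged 0.09 ± 0.14. Slc9a3r1, a scaffold that binds transporters, averaged −0.22 ± 0.12. Slc35a5, of a family of nucleotide sugar carriers, had −0.48, −0.06 and −1.24 on the day 4 arrays, against 0.04, −0.74 and −0.84 on the day 2 arrays. Its mean at day 4 was −0.59 ± 0.27 (adjusted p = 0.599), −0.27 without day 4 array 3, and 0.05 ± 0.11 on its other probe. The CMP-sialic acid carrier Slc35a1, the peptide carrier Slc15a2, Slc35b1 and Slc35a4 lay between −0.23 and 0.01.

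Probes of the same gene often gave opposite signs. Of 12 members with more than 1 tested probe, 3 had means of the same sign on all their probes at day 4, among them Atp6v0c and Slc6a6, and 9 did not. The other tested probe of Atp6v0c was below 0 on day 4 array 2 only. Taking the 2 brightest probes of each name, 8 of 12 members (66.7%) had opposite signs at day 4, against 165 of 494 annotation names over the whole array (33.4%). For Atp6v0a4 both probes lay more than 1 SE from 0. Which probe of such a gene reports its transcript was not tested.

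**Figure D4:**
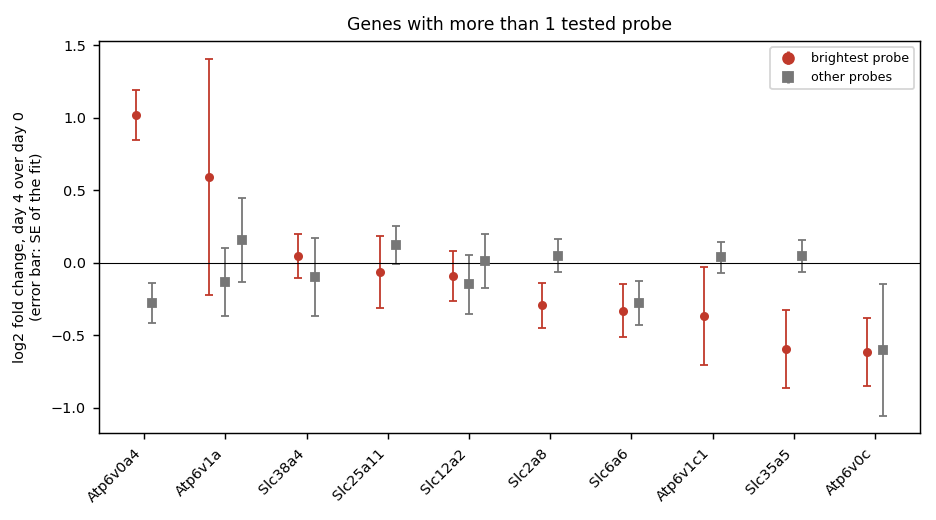
Log2 fold change of day 4 over day 0 with its SE for every tested probe of 10 of the 12 genes with more than 1, ordered by the brightest probe (circles, with other probes as squares). The brightest probe of Atp6v0a4 stands above 1 while its other probe lies below 0, and the probes of Slc6a6 and Atp6v0c lie together.

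At day 2 no transporter gene passed the test against day 0, and most values depended on which way arrays 1 and 2 run. By limma 0 of 62 members were higher and 0 lower (0% of all probes in each direction), and at an unadjusted p under 0.05 there were 2 higher (3.23%, against 1.72% of all probes) and 0 lower (1.12% of all probes). The 2 were Atp6v0a4 (0.44 ± 0.17, n = 3) and Slc7a2 (0.36 ± 0.14, n = 3), each with an adjusted p of 0.966. With the sign of day 2 array 1 turned Atp6v0a4 had 0.46 and Slc7a2 −0.05, and with that of array 2 turned they had 0.0084 and 0.30. The second probe of Atp6v0a4 averaged −0.02 ± 0.14 at day 2. Atp6v0a1 averaged 0.11 ± 0.10, and 0.12 and −0.0041 with the sign of array 1 or array 2 turned. Slc25a13 had −0.04, 0.41 and 0.09 on the day 2 arrays, with a mean of 0.15 ± 0.12. This mean became 0.18 with array 1 turned and −0.12 with array 2 turned.

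On the lower side, Abcd3 had −0.13, −0.56 and −0.59 on the day 2 arrays (mean −0.43 ± 0.19) and Slc25a5 averaged −0.38 ± 0.19. Both were below 0 on all 3 day 2 arrays, and both stayed below 0 with either array turned. Slc35a5 (−0.51 ± 0.27) and Atp1b2 (−0.44 ± 0.26) followed, Atp1b2 with day 2 array 2 far below the others. With the sign of array 1 turned they had −0.54 and −0.25, and with that of array 2 turned −0.020 and 0.32. In all, 2 of 62 members lay above 0 on all 3 day 2 arrays (3.23%, against 9.13% of all probes) and 2 below (3.23%, against 7.33%). With array 1 turned, 11 lay above (17.7%, against 21.9% of all probes) and 14 below (22.6%, against 22.4%). With array 2 turned, 5 lay above (8.06%, against 14.2%) and 20 below (32.3%, against 16.3%).

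Day 2 arrays 1 and 2 had opposite signs for 50 of the 62 members (80.6%, against 74.8% of all probes), and day 4 arrays 1 and 2 for 16 of 61 (26.2%, against 30.1%). Day 4 arrays 1 and 3 had opposite signs for 14 of 41 members (2061 of 5270 probes). Day 4 arrays 2 and 3 did for 17 of 42 members (2311 of 5630 probes). Over the 63 members the day 2 pair had r −0.653, which describes genes on shared arrays and not replicates. Among the widest gaps were those of Slc25a10 and Atp6v1a, each above 2 on array 1 and below −1 on array 2. Only 10 of 62 day 2 means kept their sign with either array turned. The number below 0 was 34 in the stated direction (54.8%, against 47.6% of all probes), 31 with array 1 turned and 37 with array 2 turned, and the number above 0 in the stated direction was 28 (45.2%, against 52.4%).

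**Figure D5:**
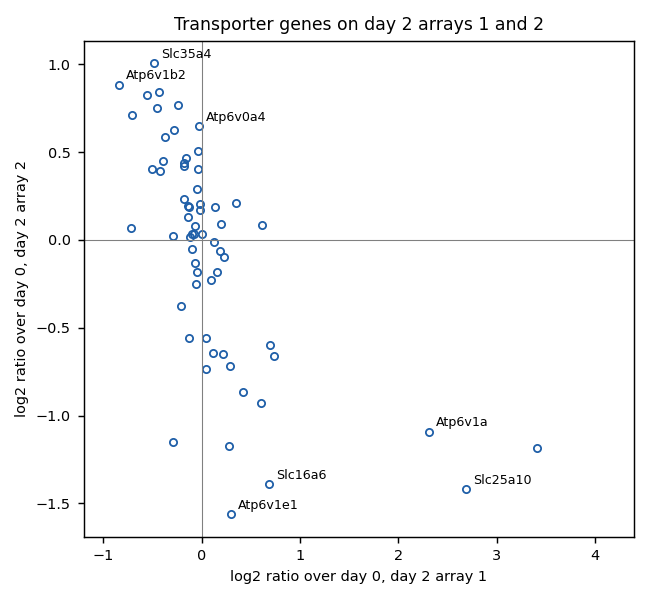
Log2 ratio over day 0 of the 63 transporter genes on day 2 array 2 (vertical) against day 2 array 1 (horizontal). Most points fall in the upper left and lower right, where the arrays have opposite signs, with Slc25a10 and Atp6v1a among the points farthest to the lower right.

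The later ages were set against each other through their ratios to day 0. Most arrays had a day 0 RNA of their own, so differences between day 0 samples remain in this comparison. A dye effect that is equal on every array cancels only if all arrays have the stated dye orientation, which is unsettled for day 2. In values with an array turned in sign such an effect would not cancel. No transporter gene passed the test of day 4 against day 2. By limma 0 of 62 members were higher and 0 lower at day 4 (0% of all probes in each direction). At an unadjusted p under 0.05 there was 1 higher, Atp6v0a1 (1.61%, against 1.97% of all probes), and 1 lower, Abcb1b (1.61%, against 0.676%). The difference was 0.36 ± 0.14 for Atp6v0a1 and −0.56 ± 0.21 for Abcb1b, each with an adjusted p of 1.00. With the sign of day 2 array 1 or 2 turned it was 0.35 and 0.47 for Atp6v0a1 and −0.33 and −0.42 for Abcb1b. Atp6v0a4 had 0.58 ± 0.24 on its brightest probe, and 0.56 and 1.01 when turned. Its second probe had the opposite sign, at −0.26 ± 0.19 in the stated direction. By sign alone, 24 of 62 members were higher at day 4 than at day 2 (38.7%, against 47.0% of all probes) and 38 lower (61.3%, against 53.0%), or 36 and 34 lower with array 1 or array 2 turned.

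The arrays of the ages did not overlap for 5 of the 41 members with all 6 values. Atp6v0a4 and Atp6v0a1 were higher at day 4 (4.88%, against 4.14% of all probes), and Abcb6, Abcb1b and Slc2a3 were lower (7.32%, against 2.73%). With the sign of day 2 array 1 turned there were 4 members higher (9.76%, against 9.64% of all probes) and 4 lower (9.76%, against 5.62%). With that of array 2 turned there were again 4 higher (8.79% of all probes) and 4 lower (6.96% of all probes). Atp6v0a4, Atp6v0a1 and Slc2a3 were without overlap in each case, Abcb6 overlapped with array 1 turned, and Abcb1b overlapped with either turned. This holds for the brightest probes, of which those of Atp6v0a1 and Slc2a3 were dim and fell to the intensity filter. On the second probe of Atp6v0a4 the ages overlapped. The difference was −0.46 ± 0.21 for Abcb6 and −0.33 ± 0.14 for Slc2a3, and these became −0.31 and −0.37 with day 2 array 1 turned and −0.52 and −0.27 with array 2 turned. Slc3a2 had −0.79 ± 0.44 and Slco3a1 0.59 ± 0.29, each with no value on day 4 array 3 and given in the stated direction only. The day 2 mean of Slc3a2 was 0.02, and 0.49 and −0.46 with array 1 or array 2 turned. That of Slco3a1 was 0.18, and 0.28 and −0.13 when turned.

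Other channels, pumps and carriers on the array gave no gene past the test either. A list of 30 further names, such as aquaporins, gap junction and chloride channels, transient receptor potential channels, subunits of ATP synthase and names holding carrier, transporter or exchanger, had 13 above and 17 below 0 at day 4 with a median of −0.06. Of all probes, 49.8% lay above 0 and 50.2% below. At day 4 against day 0 by limma 0 of these names passed and 0 had an unadjusted p under 0.05 (5.00% of all probes did on the higher side and 4.29% on the lower). At day 2 against day 0 0 passed and 1 had an unadjusted p under 0.05, on the lower side (1.12% of all probes did there). Nearest to this p at day 4 on the lower side were chloride channel 3 (−0.50 ± 0.25), secretory carrier membrane protein 3, a vesicle protein (−0.22 ± 0.11), and mitochondrial carrier homolog 2 (−0.49 ± 0.24). On the higher side they were secretory carrier membrane protein 1 (0.24 ± 0.12), transient receptor potential channel Trpm2 (0.20 ± 0.12) and a gene similar to Mid-1-related chloride channel 1 (0.42 ± 0.28).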

How the data were processed

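RNA of 6 ovary samples of day 4 and day 2 was hybridised to 6 two-colour cDNA arrays, against 5 day 0 RNA samples. The authors deposited, per the file headers, 4 repeat log2 ratios for each probe and array (clones spotted in duplicate on slides that were hybridised a second time), with their mean, a mean log2 intensity and flags as a further score. Per the submitters' processing notes the authors used R 1.7.1. How background was corrected and ratios normalized is not given in the sources used here.

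Repeats were averaged for each array with no further normalization. Probes with values on at least 2 arrays of each age (8135) were fitted in limma 3.58.1 (R 4.3.3), with 1 mean per age over all 6 arrays, moderated variances and tests in both directions. Adjustment was by Benjamini-Hochberg over all 8135 probes, and the threshold was 0.05. SEs come from this fit, and the number of arrays limits their precision. The code was tested on simulated data.

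The members, gene lists and tests were chosen with earlier results of these data known. Symbols were assigned by hand from the annotation names. Every member may be named, except 4 that are counted but not reported here. Values on all arrays are given for the 8 smallest p-values in each direction at day 4 against day 0, for 4 in each direction in the other comparisons, for Na+/K+ ATPase subunits and for 8 measured genes of a list of 19 carriers. For the neighbouring list, values are given for 3 names in each direction. Alternatives changed normalization, filters, moderation, arrays, pairing, array sign and the choice of probe.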

Additional observations from a re-analysis of the deposited data

How the results depend on the processing

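The count of transporter genes past the test at day 4 against day 0 was 0, and it became 2 with a variance trend and robust moderation, 3 with the day 4 arrays alone and 0 to 1 when 1 array was left out. It was also 3 without day 2 arrays 1 and 2, an alternative chosen after seeing the data (among them Atp6v0a4, adjusted p = 0.0208, and Atp6v1e1, 0.045). All other alternatives gave 0, and in the comparisons of day 2 against day 0 and of day 4 against day 2 every alternative gave 0. Among all probes, 39 passed at day 4 against day 0, and the count was 96 with scale normalization, 126 with trend and robust moderation, 166 with the day 4 arrays alone, 159 without day 2 arrays 1 and 2, 21 with the array number as a replicate block, 71 without day 2 array 1, 16 without day 2 array 3, and 0 without any 1 of the day 4 arrays, without array 3 of both ages or with the sign of day 2 array 2 turned. For day 4 against day 2 it was 0, and 1 with trend and robust moderation. The median over members at day 4 ran from −0.21 to −0.099. Of 520 recomputed values of 25 named members at day 4, 517 kept their sign, and at day 2 471 of 520 did. Alternatives that change only day 2 arrays, the moderation or the probe filter leave a day 4 mean as it was. The day 4 count is therefore no measure of how stable these means are. With 1 day 4 array left out, the means of 12 of 41 members turned sign.

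Deviations of same-numbered arrays from their age's mean had correlations of 0.365, 0.0526 and 0.515 over 5270 probes. Not every pair was above 0.1, so the numbers were not taken as pairing the samples, although array 3 of both ages shares its day 0 RNA, and day 4 array 2 correlated best with day 2 array 1 (0.0912). With the replicate block 0 members passed in each comparison.

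With 3 arrays per age, 2 of which ran opposite to each other at day 2, the median SE over members was 0.19 at day 4 and 0.26 for day 4 against day 2, so that small differences were not detectable. The scale normalization divided each array by its median absolute log2 ratio.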
